A study of Homo sapiens with 6 samples.

Results

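The clusters described here are the IGF2BP3 crosslink clusters that lie over a stop codon. A cluster is a stretch of RNA that the authors called from overlapping reads with T-to-C conversions, the mark that crosslinked 4-thiouridine leaves in the sequence. A cluster was taken when its interval held at least 1 nt of the stop codon of an Ensembl canonical protein-coding transcript in GENCODE release 44, on the same strand. The 5 IGF2BP3 libraries held 4053 such clusters among 244620 clusters in all, and these lay over 2237 different stop codons of the 19392 annotated.

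The libraries came from HCT116, an established human colorectal carcinoma cell line, here with the genotype Tet-OsTIR1-PURO (a tetracycline-controlled plant F-box protein), and all cells had received 4-thiouridine at 100 µM for 15 h before long-wave UV crosslinking. IGF2BP3 was immunoprecipitated after RNase I at in-lysate/on-bead concentrations of 0.05/0.05, 0.1/0.025 or 0.05/0.025 U/µL, or after RNase T1 (1/1 or 0.25/0.25 U/µL), while an IgG control was made with RNase I at 0.1/0.025 U/µL. Each condition was 1 library, so no difference between conditions has a replicate check, and intervals given below are 95% Wilson intervals that cover counting error only. The RNase I 0.05/0.05 and RNase T1 1/1 libraries were recovered from the gel by electroelution and the others from crushed gel, so gel recovery and RNase concentration cannot be told apart between these 2 kinds of library, while RNase I 0.1/0.025 and 0.05/0.025 share their recovery and differ in the in-lysate concentration. The study found partial cross-reactivity of the antibody with the paralog IGF2BP2. The 5 IGF2BP3 libraries held 182448 to 2362467 cluster reads, and 4 epithelial markers (EPCAM, CDH1, KRT18, KRT19) had exonic clusters in at least 4 of them, KRT8 in 3, while VIM, PTPRC, COL1A1 and PECAM1 had none.

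The stop codon is where the ribosome releases the finished protein, and it divides the coding sequence, which ribosomes sweep through, from the 3′UTR, which they leave free for RNA-binding proteins. IGF2BP3 is an oncofetal RNA-binding protein whose KH domains recognise short CA-rich elements, and the IGF2BP family is known for stabilising its target mRNAs and for reading N6-methyladenosine, a mark that is dense around stop codons. RNase T1 cuts after guanosine, while RNase I cuts after any base. Of the 3 stop codons, UAA holds no guanosine, UAG ends in one and UGA has one in its middle.

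The sequences below are the windows around 4 of the 12 stop codons with the highest mean level among those under a cluster in all 5 libraries, with UAA, UAG and UGA each represented. They are shown because they are among the strongest sites and because their codons differ in guanosine, the base after which RNase T1 cuts. Each is read 5′ to 3′ from the GENCODE transcript with 30 nt of coding sequence and 20 nt of 3′UTR, and the capitals mark the stop codon.
HSP90AA1: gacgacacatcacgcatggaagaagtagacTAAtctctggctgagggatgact
EEF2: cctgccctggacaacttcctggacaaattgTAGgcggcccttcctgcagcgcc
NCL: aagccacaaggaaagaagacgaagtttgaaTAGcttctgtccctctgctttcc
NME1: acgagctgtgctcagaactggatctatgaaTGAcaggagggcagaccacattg
On GRCh38 the codons lie at chr14:102081712-102081714 (HSP90AA1, minus strand), chr19:3976554-3976556 (EEF2, minus), chr2:231455191-231455193 (NCL, minus) and chr17:51161843-51161845 (NME1, plus). NME1 held the motif CAUU 18 nt after the first base of the codon, HSP90AA1 held CAUC 23 nt before it, and EEF2 held GGAC 22 and 10 nt before it. NCL held none of the 5 motifs searched in this window.

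Clusters lay over a stop codon more often after RNase I than after RNase T1. They were 1953 of 90999 clusters in RNase I 0.05/0.05 (2.15%, interval 2.05 to 2.24), 842 of 43385 in RNase I 0.1/0.025 (1.94%, 1.82 to 2.07) and 779 of 36795 in RNase I 0.05/0.025 (2.12%, 1.97 to 2.27). They were 379 of 59873 in RNase T1 1/1 (0.633%, 0.573 to 0.700) and 100 of 13568 in RNase T1 0.25/0.25 (0.737%, 0.606 to 0.896). The IgG library held 0 among 25 clusters, which allows a share of up to 12% (3 clusters of the total). The share was 3.39 times higher with RNase I in the electroeluted pair and 2.87 times higher in the crushed-gel pair of RNase I 0.05/0.025 and RNase T1 0.25/0.25. RNase T1 clusters were shorter, with medians of 34 and 38 nt in clusters of the 3′UTR alone against 55 to 58 nt after RNase I, and among clusters of 40 to 80 nt the ratios were 1.64 and 1.70.

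The reads of these clusters made up a larger part of each library than their number did. They were 8.94% of all cluster reads in RNase I 0.05/0.05, 5.24% in RNase I 0.1/0.025, 6.41% in RNase I 0.05/0.025, 0.95% in RNase T1 1/1 and 1.74% in RNase T1 0.25/0.25. A few codons held much of this. The 10 deepest clusters gave 15.5% of the stop codon reads in RNase I 0.05/0.05 but 73.1% in RNase T1 0.25/0.25. There CYB5B, a cytochrome b5 of the mitochondrial outer membrane, alone gave 28.3%. Its cluster of 413 nt held only the last base of the codon and ran 412 nt past it. EEF2, the elongation factor that moves the ribosome along the mRNA, gave 20.8% in RNase T1 1/1. Without the 10 deepest, the shares of all reads were 7.56%, 3.72%, 4.49%, 0.594% and 0.469% in the same order of libraries.

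Coverage did not peak at the stop codon. It climbed through it into the 3′UTR. The codon was read here at its middle base, not by the rule of at least 1 nt. Among 7455 transcripts with at least 300 nt of coding sequence and of 3′UTR and with an exonic cluster in RNase I 0.05/0.05, the codon lay under a cluster in 20.7% (interval 19.8 to 21.6). The mean over the coding positions 100 to 300 nt before the codon was 11.8%, over the last 100 nt before it 16.3%, over the first 100 nt after it 30.3% and over the following 200 nt 35.1%. RNase T1 1/1 gave the same order at lower levels, 2.53%, 3.42%, 9.95% and 13.7%, with 4.44% at the codon. The codon stood 1.75 times above the far coding positions in RNase I 0.05/0.05, 1.93 and 1.88 times in RNase I 0.1/0.025 and 0.05/0.025, and 1.75 and 1.65 times in RNase T1 1/1 and 0.25/0.25. The step from the last 100 nt before the codon to the first 100 nt after it was 1.86-fold in RNase I 0.05/0.05, 2.38-fold and 2.37-fold in the other RNase I libraries, and 2.91-fold and 4.02-fold after RNase T1. In clusters of at least 20 reads the step was 2.42, 3.41, 3.31, 4.92 and 11.6-fold in the same order, the last with 0.304% of transcripts covered at the codon.

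**Figure D1:**
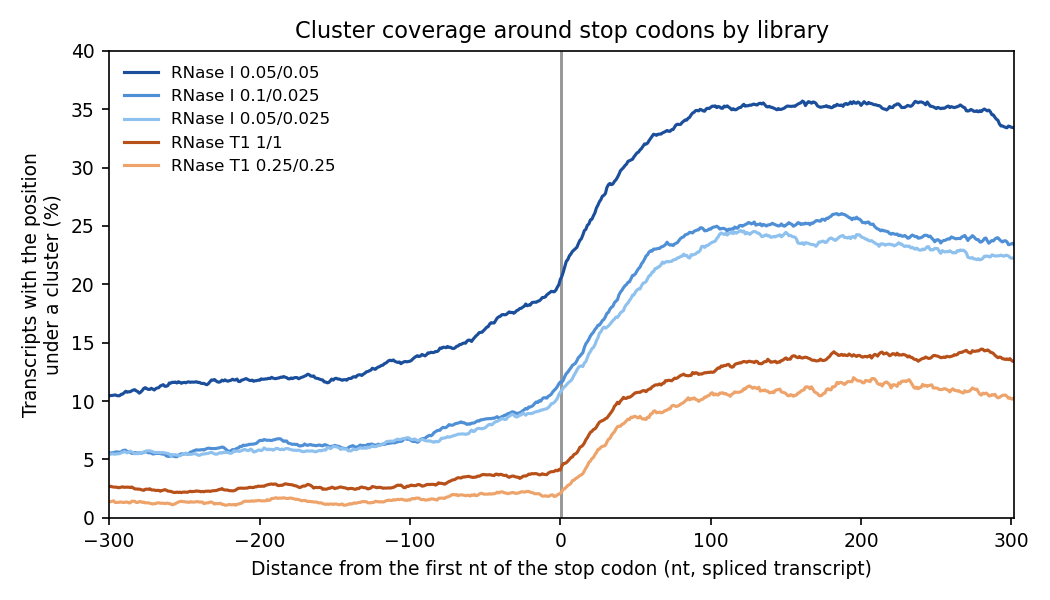
Percentage of transcripts with each position under a cluster (vertical axis) against the distance from the stop codon in spliced nt (horizontal axis), 1 line per library, with the codon as a grey band. All 5 lines rise across the codon. RNase I 0.05/0.05 goes from 20.7% at the middle base of the codon to a highest value of 35.7%, and RNase T1 1/1 from 4.44% to 14.5%.

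The clusters leaned to the 3′UTR side of the codon. In RNase I 0.05/0.05 they reached a median of 29 nt before the codon (quartiles 11 and 59) and 54 nt after it (24 and 127). In RNase T1 1/1 they reached 12 nt before (3 and 24) and 24 nt after (10 and 36). The longer arm was the 3′UTR one in 65.8%, 65.3% and 68.0% of the clusters in RNase I 0.05/0.05, 0.1/0.025 and 0.05/0.025, and in 62.5% and 67.0% in RNase T1 1/1 and 0.25/0.25. The lowest lower bound among these shares was 57.3%. The longest cluster ran over 1715 nt in RNase I 0.05/0.05, and 428 clusters of that library were 200 nt or longer, against 2 in RNase T1 1/1.

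**Figure D2:**
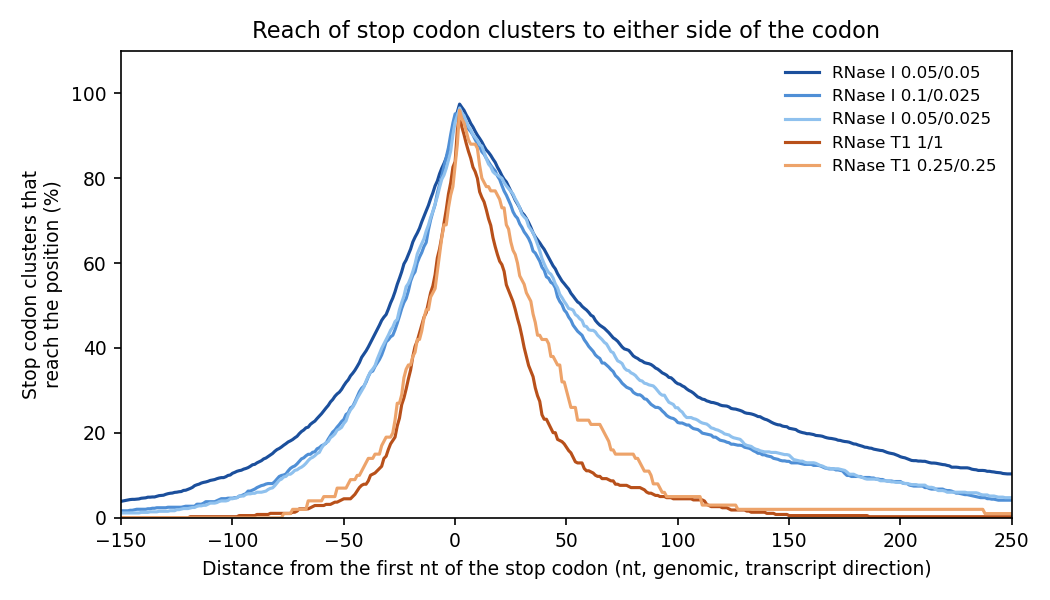
Percentage of stop codon clusters that reach each position (vertical axis) against the distance from the codon in nt along the genome, in transcript direction (horizontal axis), 1 line per library. Every line falls more slowly to the right, with medians of 54 nt after and 29 nt before the codon in RNase I 0.05/0.05 and of 24 and 12 nt in RNase T1 1/1.

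The position with the strongest conversion signal, the mode of a cluster, gave no firm side. It lay before the codon in 53.4% of clusters in RNase I 0.05/0.05 (interval 51.1 to 55.6), inside it in 6.09% and after it in 40.6%. In RNase T1 1/1 these shares were 50.1%, 12.4% and 37.5%. The mode was the first or last nt of the cluster in 56.5% to 64.0% of stop codon clusters and in 55.5% to 62.3% of all clusters. Without such modes the share after the codon was 51.8% in RNase I 0.05/0.05, 55.9% and 56.0% in the other RNase I libraries and 53.9% and 55.6% after RNase T1, so the side with more modes turned.

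RNase T1 often had no cluster over a codon but one elsewhere in the region around it, at a distance that was not measured. For each of the 2237 codons the clusters of the 5 libraries that overlapped were merged into 1 region, and the reads of each library were counted in it. RNase T1 1/1 had a cluster over the codon at 379 codons, a cluster elsewhere in the merged region at 861 and none at 997. RNase I 0.05/0.05 had 1953, 174 and 110, and this library supplied most of the codons, so its first number is high by the choice of codons. RNase I 0.1/0.025 had 842, 575 and 820, RNase I 0.05/0.025 had 779, 532 and 926, and RNase T1 0.25/0.25 had 100, 571 and 1566. Stop codon clusters held 69.4%, 34.0% and 39.1% of the reads of these regions in the RNase I libraries and 8.94% and 9.17% after RNase T1.

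**Figure D3:**
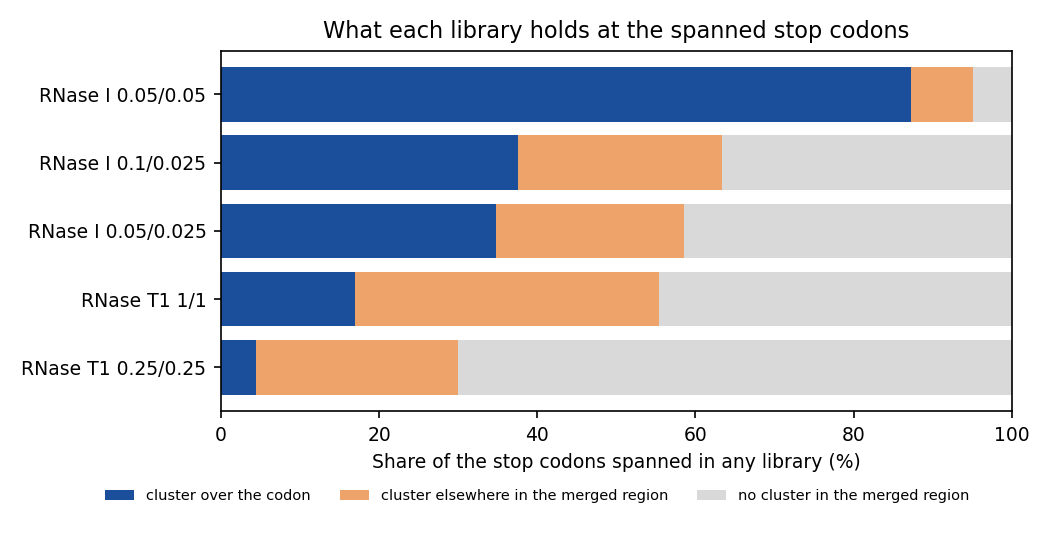
Share of the 2237 spanned stop codons (horizontal axis, percent) by what each library (vertical axis) held there, a cluster over the codon, a cluster elsewhere in the merged region, or none. RNase T1 1/1 had a cluster only elsewhere in the merged region at 38.5% of the codons and over the codon at 16.9%.

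Where RNase T1 clusters fell was read directly inside the RNase I clusters. Of the 1953 stop codon clusters of RNase I 0.05/0.05, 957 overlapped no RNase T1 1/1 cluster. A further 499 (25.6%, interval 23.7 to 27.5) overlapped RNase T1 clusters only on the 3′UTR side of the codon, 113 (5.79%, 4.83 to 6.91) only on the coding side, 71 on both sides, and 313 (16.0%) over the codon. The crushed-gel pair gave 170 of 779 on the 3′UTR side (21.8%) and 30 on the coding side (3.85%). The RNase I arm on the 3′UTR side was the longer one, as given above, and its part in this difference was not tested. The share of all RNase I clusters that overlapped no RNase T1 cluster was not computed. By merged region, without a filter on low values, 42.9% of stop codon regions and 54.2% of all regions had no RNase T1 1/1 reads. Their median lengths were 127 and 53 nt, and the part of length was not tested.

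The base inside the codon went with the way RNase T1 clusters met it. In RNase T1 1/1 the whole codon lay in the cluster for 177 of 179 UAA codons (98.9%, interval 96.0 to 99.7), for 51 of 55 UAG codons (92.7%, 82.7 to 97.1) and for 72 of 145 UGA codons (49.7%, 41.6 to 57.7). The intervals of UGA and UAA did not overlap. Of the UGA clusters, 27 began at the guanosine in the middle of the codon, 27 began at the base after it, and 18 ended at the guanosine. A cluster that ends at the closing guanosine of UAG still holds the whole codon, and 10 of the 55 did so. The share that ended in the codon was 0.559% for UAA, 18.2% for UAG and 12.4% for UGA. In RNase T1 0.25/0.25 it was 2.04%, 5.88% and 11.8% in the same order. RNase T1 0.25/0.25 held the whole codon for 48 of 49 UAA and 16 of 34 UGA codons. In RNase I 0.05/0.05 the order was the opposite, with 86.8% of UAA and 94.6% of UGA codons whole. RNase T1 1/1 and 0.25/0.25 clusters over a stop codon ended in a guanosine in 94.5% and 89% of cases, close to the 94.9% and 92.2% of clusters in the 3′UTR alone, while for RNase I the range was 11% to 13.7%. Single sites varied. The RNase T1 0.25/0.25 cluster of NME1, a nucleoside diphosphate kinase, began at the last base of its UGA codon. The RNase T1 1/1 cluster of the same codon began 5 nt before it and the RNase I 0.05/0.05 cluster 43 nt before it.

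UAA codons were also held more often than the others after RNase T1. Of the transcripts with an exonic cluster in RNase T1 1/1, 179 of 2236 UAA codons lay under a cluster (8.01%, interval 6.95 to 9.20), against 145 of 3393 UGA codons (4.27%, 3.64 to 5.01) and 55 of 1564 UAG codons (3.52%, 2.71 to 4.55). In RNase T1 0.25/0.25 the shares were 4.48% for UAA, 2.39% for UGA and 2.50% for UAG. After RNase I they were 25.8%, 22.8% and 21.5% for UAA, UGA and UAG at 0.05/0.05, 15.4%, 13.2% and 12.6% at 0.1/0.025, and 16.1% (14.5 to 17.9), 12.6% (11.4 to 13.9) and 11.4% at 0.05/0.025, so UAA was the highest in every library. UAA thus made up 47.2% of the codons held in RNase T1 1/1 (42.3 to 52.3) where 31.1% of the background codons were UAA, 32.5% in RNase I 0.05/0.05 (30.5 to 34.6) against 29.5%, and 37.2% in RNase I 0.05/0.025 (33.9 to 40.7) against 31.1%. Base composition moved with this. Guanosine was 18.2% of the 30 nt after the codons held in RNase T1 1/1 and 24.2% after those not held, against 21.6% and 25.4% in RNase I 0.05/0.05, and its part in the result was not tested. With the whole codon inside the cluster, RNase I 0.05/0.05 held 22.4% of UAA codons (20.8 to 24) and 21.6% of UGA codons (20.4 to 22.9), so these intervals overlapped.

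**Figure D4:**
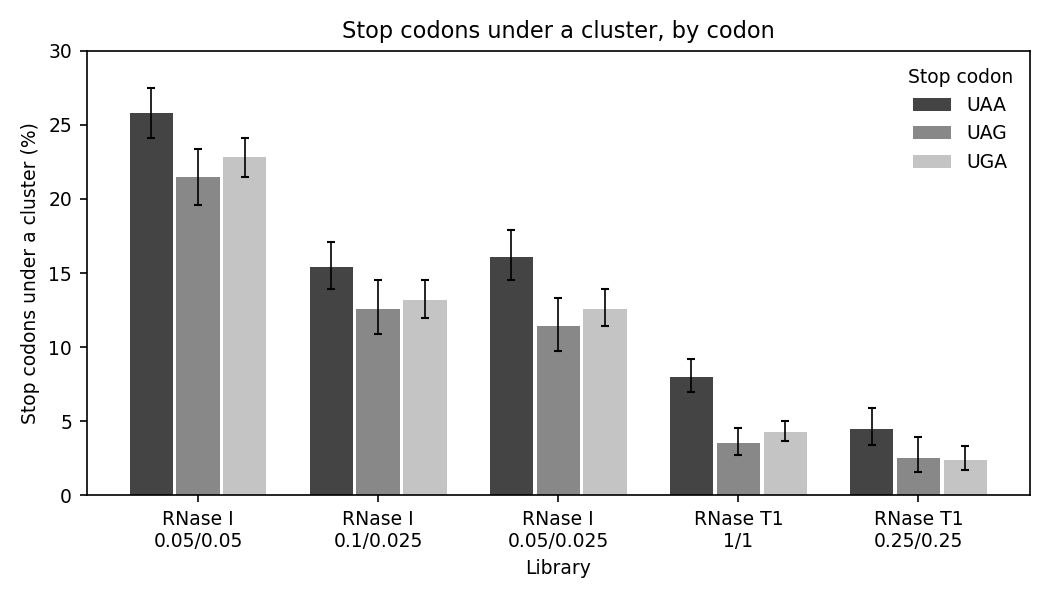
Percentage of stop codons under a cluster (vertical axis, bars from 0) for UAA, UAG and UGA in each library (horizontal axis), over transcripts with an exonic cluster in that library. Error bars are 95% Wilson intervals, and the UAA bar of RNase T1 1/1, at 8.01%, stands clear of UGA at 4.27%.

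Among transcripts with an exonic cluster in the library, codons with a short 3′UTR were held more often. That cluster could lie anywhere, and a long 3′UTR has more room for clusters away from the codon. The shares are thus not independent of 3′UTR length. In RNase I 0.05/0.05, 40.8% of the stop codons with under 200 nt of 3′UTR lay under a cluster (200 of 490, interval 36.6 to 45.2), and 20.7% of those with 2000 nt or more (731 of 3539, 19.4 to 22.0). The same ends of the range gave 30.9% and 11.4% in RNase I 0.1/0.025, 31.9% and 10.4% in RNase I 0.05/0.025, 9.93% and 4.72% in RNase T1 1/1 and 9.8% and 2.22% in RNase T1 0.25/0.25. Cytosolic ribosomal proteins, with a median 3′UTR of 124 nt, had 47 held codons in RNase I 0.05/0.05, and their part was not tested. Uridine made up 26.5% of the 30 nt after held codons and 23.9% after the others in RNase I 0.05/0.05, and 29.1% and 25.0% in RNase T1 1/1. Transcripts with a held codon also had more clusters, a median of 9 against 5 in RNase I 0.05/0.05 and 8 against 4 in RNase T1 1/1, and the part of that number in these differences was not tested.

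Stop codon clusters had longer medians than clusters in the coding sequence alone or the 3′UTR alone in all 5 libraries, and higher median levels than the coding clusters. A long interval is more likely to hold a given codon, so length and depth are not independent of how the clusters were chosen. The median length was 99 nt against 53 and 58 nt in RNase I 0.05/0.05 and 40 nt against 32 and 34 nt in RNase T1 1/1. The median count was 8.89, 16.2, 20.9, 9.51 and 43.8 CPM (the cluster's reads scaled by the library's total of cluster reads) in RNase I 0.05/0.05, 0.1/0.025 and 0.05/0.025 and RNase T1 1/1 and 0.25/0.25. Clusters of the coding sequence alone had 3.39, 8.71, 10.4, 7.78 and 38.4 CPM in the same order. Clusters of the 3′UTR alone had 4.23, 11.2, 13.4, 9.51 and 43.8 CPM, lower than the stop codon clusters after RNase I and equal to them in both RNase T1 libraries (mean difference 3.42 ± 3.3 CPM, exact two-sided sign-flip p = 0.25). Among clusters of 40 to 80 nt the mean difference over libraries turned to -0.549 CPM against the coding clusters and -2.80 CPM against the 3′UTR clusters.

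Conversions were counted as events per read. The median over stop codon clusters was 0.667, 0.692, 0.655, 0.6 and 0.667 conversion events per read in the same order of libraries. Clusters of the 3′UTR alone had 0.625, 0.667, 0.6, 0.538 and 0.579, lower in all 5. The mean difference was 0.0542 ± 0.0232 events per read (SD, n = 5 libraries; exact two-sided sign-flip permutation test, p = 0.063, adjusted over 6 comparisons 0.0938). With 5 libraries this test cannot go below 0.063. Against clusters of the coding sequence alone the difference was 0.0244 ± 0.0274, and the medians were equal in 2 libraries (exact p = 0.250, adjusted 0.250). In clusters of 40 to 80 nt the difference from the 3′UTR clusters was 0.0491 ± 0.0122. In clusters of at least 20 reads it was 0.0362 ± 0.017, with lower stop codon medians in every library. Pooled over clusters, conversion events as a share of conversion and non-conversion events gave another order. Stop codon clusters had 8.2%, 8.22%, 7.43%, 6.65% and 6.64%, lower than coding clusters in all 5 libraries (9.89%, 9.85%, 8.87%, 7.66% and 7.55%). Clusters of the 3′UTR alone had 7.65%, 7.77%, 7.07%, 5.43% and 6.04%, lower than both.

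Clusters of more than 10 CPM with more than 0.5 conversion events per read were counted next, the criteria by which target genes are defined in the methods. In RNase I 0.05/0.05, 897 of 1953 stop codon clusters met both (45.9%, interval 43.7 to 48.1), where 17.6% of all clusters did. The shares were 62.0% where all clusters gave 39.1% in RNase I 0.1/0.025, and 68.0% where all gave 45.7% in RNase I 0.05/0.025. After RNase T1 they were 29.0% (110 of 379, 24.7 to 33.8) where all gave 21.3% in the 1/1 library, and 77.0% (77 of 100) where all gave 59.3% in the 0.25/0.25 library. Every cluster of the 0.25/0.25 library had over 10 CPM, so its shares rest on the conversion criterion alone. The mean difference was 19.8 ± 7.70 percentage points (SD, n = 5 libraries). Among clusters of 40 to 80 nt it was 5.86 ± 5.4 points, from 0.398 in RNase T1 1/1 to 12.9 in RNase T1 0.25/0.25, and the part of length and depth in the difference was not tested.

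The motifs searched were CAUU and CAUA and CAUC and CAGU, which are short elements of the kind IGF2BP proteins bind, and GGAC, the common core of N6-methyladenosine sites. They were looked for on the transcript strand in windows of 41 nt around the mode. CAUU lay in 16.1% of the windows of stop codon clusters, as the mean of 5 libraries, against 27.1% for clusters of the 3′UTR alone, and was lower in 5 of 5 libraries (difference -11 ± 3.54 points; exact two-sided sign-flip test, p = 0.063, adjusted over 10 comparisons 0.125). CAUC lay in 18.2% against 14.4% in the 3′UTR and 24.7% in the coding sequence, higher than the first and lower than the second in 5 of 5 libraries, with the same p-values. CAUA lay in 10.7%, against 11.1% in the coding sequence and 16.2% in the 3′UTR, and was lower than the latter in 5 of 5 libraries (difference -5.52 ± 2.74 points, exact p = 0.063, adjusted 0.125). CAGU lay in 20.6%, against 22.3% and 19.4% (differences -1.78 ± 2.74 and 1.16 ± 2.39 points, exact p = 0.25 and 0.438, adjusted 0.357 and 0.547). GGAC lay in 11.8%, against 12.5% in the coding sequence and 7.99% in the 3′UTR, and the exact sign-flip p was 0.812 against the first and 0.125 against the second. Windows of 41 nt centred on all canonical stop codons held CAUU in 11.6%, CAUC in 13.9% and GGAC in 16.0%. Windows on the 2220 spanned codons that could be placed held them in 16.4%, 18.3% and 14.4%.

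Of the 2237 codons, 1190 were held in 1 library, 506 in 2, 360 in 3, 134 in 4 and 47 in all 5. The libraries shared codons mostly in 1 direction, since their lists differ in length. RNase I 0.05/0.05 and RNase T1 1/1 shared 312 codons, which were 16.0% of the first list and 82.3% of the second. RNase I 0.1/0.025 and 0.05/0.025, which were recovered in the same way, shared 471, or 55.9% and 60.5%. The RNase T1 libraries shared 64, or 16.9% of the 1/1 list and 64.0% of the 0.25/0.25 list. RNase I, with 3 libraries, alone held 1822 codons, and RNase T1, with 2, alone held 56. A lack of RNase T1 reads was also common over all merged regions. Of merged regions with reads in either electroeluted library, 42.9% of those with a stop codon had no RNase T1 1/1 reads, against 54.2% of all. In the crushed-gel pair 49.7% and 69.2% had no RNase T1 0.25/0.25 reads. The stop codon regions were longer, with medians of 127 nt against 53 nt in the electroeluted pair and 208 nt against 102 nt in the crushed-gel pair. The part of length was not tested, and these shares are no background for the 1822 and 56 codons. Of the 47 codons held everywhere, 25 were UAA, 15 UGA and 7 UAG. UAA made up 28.2% of all canonical codons. A codon held everywhere is also held in both RNase T1 libraries, where UAA made up 47.2% and 49% of the held codons.

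EEF2 had the highest mean level of these 47 and varied little. Its UAG codon lay under 2335, 2784 and 2919 CPM in RNase I 0.05/0.05, 0.1/0.025 and 0.05/0.025 and under 1972 and 3201 CPM in RNase T1 1/1 and 0.25/0.25, a range of 1.62-fold. The highest and the lowest value were both from RNase T1, so the enzymes overlapped. Its RNase I 0.05/0.05 cluster reached from 188 nt before the codon to 496 nt after it, where the 3′UTR has 498 nt.

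The UAA codon of TUBA1B, an alpha-tubulin chain of microtubules, lay under 663, 2493 and 3036 CPM after RNase I and 129 and 1694 CPM after RNase T1. Both electroeluted libraries were the lowest of their enzyme. Tubulin genes have near-identical copies, so reads at this codon are uncertain in their origin. SRSF6, a splicing factor of the SR family, had 293, 429 and 489 CPM after RNase I and 44.1 and 592 CPM after RNase T1. Here RNase T1 0.25/0.25 was the highest and RNase T1 1/1 the lowest.

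CDV3 and NCL had the widest ranges of the 12, 29.5-fold and 29.8-fold. CDV3 had 555, 611 and 592 CPM after RNase I and 20.7 and 27.4 CPM after RNase T1, with 24 and 5 reads behind the last values. NCL, the nucleolar protein nucleolin, had 298, 340 and 464 CPM and then 15.6 and 126 CPM. The groups did not overlap at either codon. The merged regions told otherwise, with 310 and 745 CPM after RNase T1 at CDV3, where RNase I gave 555 to 636 CPM, and 253 and 762 CPM at NCL, where RNase I gave 298 to 464 CPM.

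HSP90AA1, the inducible HSP90 chaperone, had 894 CPM over its UAA codon in RNase I 0.05/0.05, where the cluster ran on for 687 nt past the codon. It had 193 and 165 CPM in the other RNase I libraries and 74.3 and 274 CPM after RNase T1, and in these 4 libraries the cluster ended 69 nt past the codon. The merged region held 894 to 1509 CPM after RNase I. PFN1, the actin monomer binding protein profilin, had 257, 322 and 423 CPM after RNase I and 175 CPM in both RNase T1 libraries. PCBP2, a poly(C)-binding protein, had 287, 426 and 297 CPM and then 119 and 153 CPM, and its RNase T1 0.25/0.25 cluster began at the closing guanosine of the UAG codon.

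NME1 had 211, 250 and 289 CPM after RNase I and 173 and 307 CPM after RNase T1, so the enzymes overlapped. SLC38A2, a neutral amino acid transporter, was the steadiest of the 12, with 204, 202 and 192 CPM and then 159 and 132 CPM, a range of 1.55-fold. CAP1, a cyclase-associated actin regulator, had 373, 225 and 103 CPM and then 47.5 and 60.3 CPM, while its merged region held 285 to 411 CPM in all 5 libraries. RPL30, a protein of the large ribosomal subunit, had 119, 149 and 212 CPM and then 101 and 148 CPM.

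**Figure D5:**
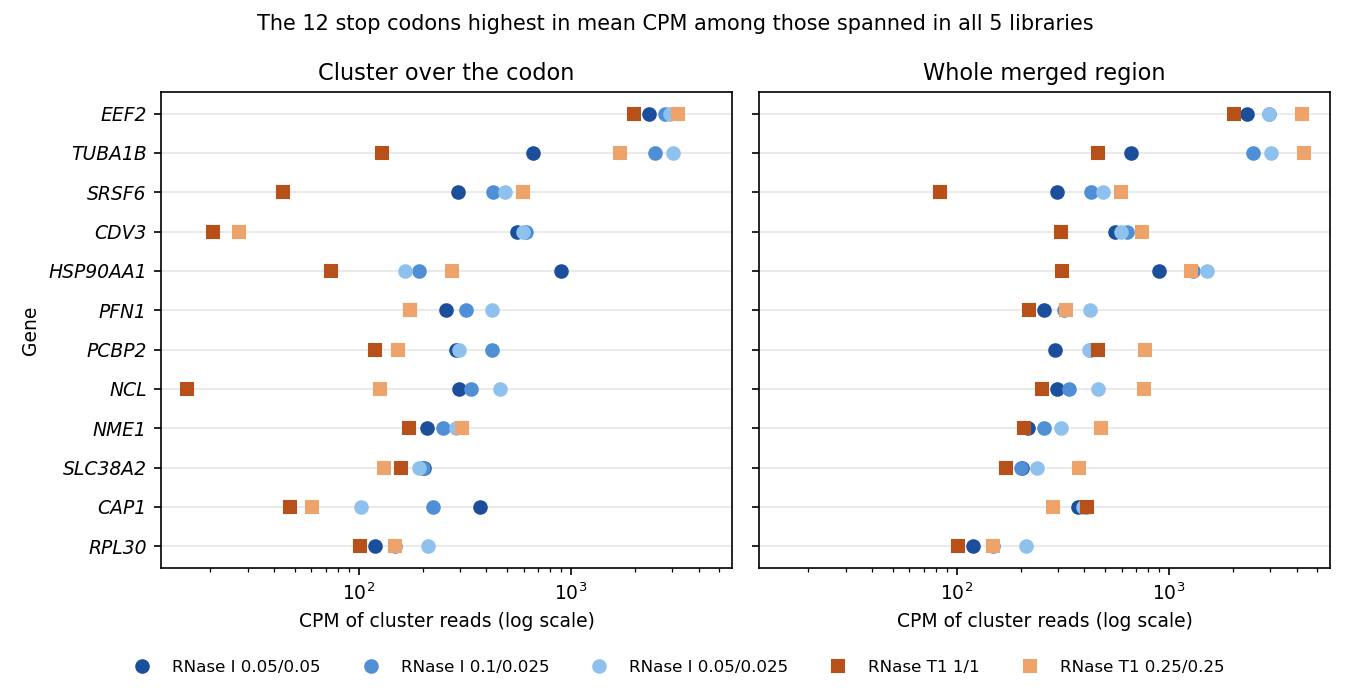
CPM of cluster reads (horizontal axis, log scale) at the 12 stop codons with the highest mean among those spanned in all 5 libraries (vertical axis, genes), for the cluster over the codon (left) and for the whole merged region (right), 1 point per library. CDV3, with 20.7 and 27.4 CPM over the codon after RNase T1, sits at 310 and 745 CPM when the merged region is counted.

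Among the deepest codons of single libraries, the cluster over the codon often came and went while the merged region stayed. TMED2, a cargo receptor of the early secretory pathway, had 2029, 3220 and 465 CPM over its UAA codon after RNase I and 0 and 1003 CPM after RNase T1, while its region held 1940 to 4483 CPM in every library. CYB5B had 1734, 47.3 and 3046 CPM and then 0 and 4933 CPM, with 1276 to 5010 CPM in the region. The cluster of 4933 CPM held only the last base of the codon. PTP4A1, a protein tyrosine phosphatase, had 1641, 102 and 2482 CPM and then 9.51 and 0 CPM, with 1455 to 6067 CPM in the region. TXNDC5, a disulfide isomerase of the endoplasmic reticulum, had 1183, 36.1 and 177 CPM and then 0 and 0 CPM, with 623 to 1791 CPM in the region. The RNase I 0.05/0.05 cluster of TXNDC5 reached 1614 nt past its codon, so these counts are of reads in the whole cluster and not at the codon.

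RNase T1 1/1 had other leading codons after EEF2. MT-ATP8, a subunit of the mitochondrial ATP synthase whose stop codon lies inside the overlapping MT-ATP6 reading frame, had 251 CPM there and 148, 207 and 149 CPM after RNase I. RAD23B, a ubiquitin receptor of DNA repair and proteasome delivery, had 247 CPM and 108, 163 and 186 CPM. Its RNase T1 1/1 cluster began at the guanosine in the middle of the UGA codon. PDP1, a phosphatase that activates pyruvate dehydrogenase, had 202 CPM and 241, 29.9 and 38.8 CPM. RNase T1 0.25/0.25 held none of these 3 codons.

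Over merged regions the enzymes were compared by the fold between CPM + 1, in regions with a mean of at least 5 CPM. In the electroeluted pair, 451 of 1321 stop codon regions were at least 2-fold higher with RNase I 0.05/0.05 (34.1%, interval 31.6 to 36.7), where 22.3% of all 32416 regions were. At least 2-fold higher with RNase T1 1/1 were 153 (11.6%, 9.97 to 13.4), where 37.2% of all regions were. The median log2 fold of RNase I over RNase T1 was 0.43 for stop codon regions and -0.43 for all. In the crushed-gel pair, 542 of 1157 stop codon regions were higher with RNase I 0.05/0.025 (46.8%, 44 to 49.7) where 59.2% of all were, and 134 were higher with RNase T1 0.25/0.25 (11.6%) where 20.3% of all were. A region counts here because a cluster lay over its codon, and 1953 of the 2237 codons had one in RNase I 0.05/0.05, so the choice of regions is not independent of the side they fall on and nothing is read from these shares. Without the filter on low values the share higher with RNase I 0.05/0.05 was 56.2% for stop codon regions and 57.3% for all. Stop codon regions were longer, with a median of 212 nt against 102 nt in the electroeluted pair. By length, those higher with RNase I in that pair were 6.25% against 9.83% of other regions under 50 nt, 22.7% against 16% from 50 nt, 40.7% against 30.7% from 100 nt and 32.8% against 28.5% from 200 nt. In the crushed-gel pair they were 50% of 8 regions against 58.1%, 77.2% against 69.6%, 66.4% against 64.7% and 32.4% against 41.3%.

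The stop codon regions furthest to the RNase I side among the 1151 with reads in both electroeluted libraries were those of NME2, ATP5MC3, ARPC1A, ACTB and ABHD10. NME2, the second nucleoside diphosphate kinase, which shares its codon with the read-through gene NME1-NME2, had 131 CPM with RNase I 0.05/0.05 and 7.78 CPM with RNase T1 1/1, from 9 reads, a log2 fold of 3.91. Its crushed-gel libraries gave 117 and 215 CPM after RNase I and 164 CPM after RNase T1, so RNase I 0.05/0.025 was above and RNase I 0.1/0.025 below the RNase T1 library. ATP5MC3, a membrane subunit of ATP synthase, had 72.8 and 4.32 CPM (log2 3.79), and ACTB, cytoplasmic beta-actin, 54.6 and 4.32 CPM (log2 3.39). Both had 0 CPM in RNase T1 0.25/0.25, as had ARPC1A and ABHD10. That was the shallowest of the IGF2BP3 libraries, in which 42.1% of the stop codon regions and 57.3% of all regions tested had no reads.

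Furthest to the RNase T1 side were SET, PNRC2, ZNF121, QSER1 and HMGN1, at log2 folds of -3.28 to -2.94. SET, a histone chaperone and phosphatase inhibitor, had 3.81 CPM with RNase I 0.05/0.05 and 45.8 CPM with RNase T1 1/1. It had 24.9 and 10.4 CPM in the crushed-gel RNase I libraries and 0 CPM in RNase T1 0.25/0.25. HMGN1, a nucleosome-binding protein, had 2.96 and 29.4 CPM. In the crushed-gel libraries it had 7.47 and 8.95 CPM against 87.7 CPM, the same order, from 6, 6 and 16 reads. PNRC2, an mRNA decay factor, had 4.98 and 7.45 CPM against 27.4 CPM, a level that is 5 reads in RNase T1 0.25/0.25. In that shallow library a few reads already give a high CPM, so no order is read from PNRC2. ZNF121 and QSER1 had 0 CPM in RNase T1 0.25/0.25.

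The gene lists are read beside all genes. Of 9034 genes with an exonic cluster in any IGF2BP3 library, 2258 had a held stop codon (25%). Among cytosolic ribosomal proteins 50 of 76 did, and 9 were held in all 5 libraries. RPL23A had 353, 6.22 and 452 CPM after RNase I and 105 and 0 CPM after RNase T1, and RPLP0, the stalk protein, had 105, 99.6 and 109 CPM and then 42.3 and 38.4 CPM. RPLP1, its partner in the stalk, went the other way, with 33.4, 32.4 and 65.6 CPM and then 95.1 and 148 CPM. These genes have many processed pseudogenes, and the median 3′UTR of those with a cluster was 124 nt against 1606 nt for all.

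Glycolytic enzymes had 10 held codons of 14 genes with a cluster. ENO1, enolase, had 385, 385 and 540 CPM after RNase I and none after RNase T1, although its region held 75.2 and 406 CPM there. GPI, glucose-6-phosphate isomerase, had 288, 373 and 417 CPM and then 32 and 0 CPM. LDHA, lactate dehydrogenase A, had 58.0, 134 and 59.6 CPM and then 55.3 and 0 CPM. Chaperones had 15 of 19. HSP90AB1, the constitutive HSP90, had 306, 326 and 385 CPM and CCT2, a subunit of the chaperonin TRiC, had 231, 335 and 406 CPM after RNase I, where RNase T1 gave 0 CPM at HSP90AB1 and 0 and 32.9 CPM at CCT2.

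Known IGF2BP targets had 11 of 16. HMGA1, a chromatin protein of oncofetal expression, had 887, 1157 and 79.0 CPM over its UGA codon at chr6:34244882-34244884 after RNase I and 22.5 and 0 CPM after RNase T1, while its region held 523 to 1157 CPM in every library. MYC, the transcription factor, had 461, 14.9 and 356 CPM and then 0 and 0 CPM, with 198 to 585 CPM in its region. CD44, a hyaluronan receptor, had 96.1, 18.7 and 95.4 CPM and then 15.6 and 0 CPM, with 137 to 212 CPM in its region. At these 3 genes the RNase I libraries did not keep 1 level over the codon, and the lowest was RNase I 0.05/0.025 for HMGA1 and RNase I 0.1/0.025 for MYC and CD44. CCND1, CCND3 and CDK6, all cell cycle genes of this list, had exonic clusters but none over the stop codon.

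Of the IGF2BP paralogs, IGF2BP2 had 2.12 CPM over its codon in RNase I 0.05/0.05 alone, and IGF2BP3 had exonic clusters but none over its codon. Among 6 genes that served as examples of these libraries, and so are no independent list, 4 had a held codon. FABP5, a fatty acid binding protein, had 224 and 216 CPM in the crushed-gel RNase I libraries and 0 CPM in the other 3. PARK7, a protein that protects against oxidative stress, had 192 and 240 CPM in RNase I 0.05/0.05 and 0.05/0.025 and 0 CPM in the rest.

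Cyclins, CDKs and their inhibitors had 6 of 14. CDKN1A, the CDK inhibitor p21, had 496, 2718 and 2493 CPM after RNase I and 0 and 406 CPM after RNase T1, and its merged region held 2836 to 6161 CPM in every library. Translation factors had 8 of 14, with EIF3A at 105 CPM in RNase I 0.05/0.05 and 4.32 CPM in RNase T1 1/1 and EEF1G at 33.9, 41.1 and 32.8 CPM after RNase I alone. The m6A writers, erasers and readers had 3 of 9, among them YTHDF3, a cytoplasmic reader, with 123 CPM in RNase I 0.05/0.05 and 0 CPM elsewhere. Replication-dependent histones, whose mRNAs end in a stem-loop and have near-identical coding sequences, had 11 of 34, with at most 34.3 CPM at H2BC5. Of 13 mitochondrially encoded proteins, 5 have an annotated stop codon and all 5 were held, MT-ATP6 with 991, 358 and 414 CPM after RNase I and 0 CPM in both RNase T1 libraries.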

How the data were processed

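Clusters from 6 libraries were used, 5 of IGF2BP3 and 1 of IgG. The deposited tables give for each cluster a read count, counts of conversion and non-conversion events, a mode position and its mode score as a fraction. According to the methods and the submitters' processing notes, the authors extracted molecular identifiers and trimmed adapters with UMI-tools 1.1.1, trimmed reads with Trimmomatic 0.30, mapped them to GRCh38 with bowtie 0.12.7, removed duplicates and called clusters with PARalyzer. The mode score fraction deposited by the authors was not used. The treatment of reads that map to several places is not given in the sources used here. For the RNase I 0.1/0.025 library 1 passage of the methods gives another in-lysate concentration than the labels and the rest of the methods, and the label was kept.

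Here, clusters were set against GENCODE release 44 on the same build with Python 3.11.15, numpy 2.4.6, pandas 2.3.3 and scipy 1.17.1, and drawn with matplotlib 3.10.9. Of 19701 canonical transcripts, 96 had no annotated stop codon and were left out, and a codon shared by several genes was counted once. CPM was computed from the counts as a share of the library's cluster reads. Of 4053 stop codon clusters, 3797 lay within exons of the transcript and had its sequence, and all 3644 that held the whole codon showed UAA, UAG or UGA there. Medians, shares and Wilson intervals are given per library, and exact sign-flip permutation tests ran over 5 libraries. Scripts were tested on simulated data. Alternatives changed the codon set, the overlap rule, filters on reads, CPM and length, the motif window, the pseudocount and the centring. The genes named are the first 12 codons by mean CPM among those in all 5 libraries, the 5 highest in RNase I 0.05/0.05 and in RNase T1 1/1, the 5 largest folds each way between these, and listed genes. The stop codon clusters and the gene lists were chosen with earlier results of these data known. The methods describe separate dishes for each condition.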

Additional observations from a re-analysis of the deposited data

How the results depend on the processing

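No paired analysis was possible because each condition had 1 library, and no replicate could be left out. Values are in the order RNase I 0.05/0.05, 0.1/0.025, 0.05/0.025, RNase T1 1/1, 0.25/0.25. The share of clusters over a stop codon was 2.68%, 2.5%, 2.69%, 0.853% and 1.19% with codons of all protein-coding transcripts, 1.97%, 1.77%, 1.9%, 0.501% and 0.582% with the whole codon inside, 1.4%, 1.13%, 1.27%, 0.192% and 0.243% with 10 nt on both sides, and 4.56%, 3.98%, 4.55%, 0.742% and 0.911% in clusters of at least 20 reads. It was 5.06%, 2.65%, 2.55% and 0.701% in clusters over 10 CPM and 5.97%, 3.2%, 3.29% and 0.759% in equal numbers of the deepest clusters for the first 4 libraries, since all clusters of the last were over 10 CPM and it set the equal number. As a share of reads it was 8.94%, 5.24%, 6.41%, 0.95% and 1.74%. RNase I stayed above RNase T1 under each of these. Clusters of 40 to 80 nt, a choice made after seeing the data, gave 1.47%, 1.4%, 1.63%, 0.893% and 0.964%, and a target difference of 5.86 points, while over 0.75 conversion events per read gave 4.58. In clusters of 40 to 80 nt the CPM differences reversed, to -0.549 against coding clusters and -2.8 against 3′UTR clusters, and the length differences of 25.1 and 22.5 nt shrank to 3.4 and 3 nt. In clusters of at least 20 reads the length differences were 41.6 and 33.1 nt and the CPM differences 15.6 and 16.6.

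For regions of the electroeluted pair, the percentages higher with RNase I and with RNase T1 were 30.2 and 8.33 with a pseudocount of 5 CPM (all regions 19.4 and 29), 56.2 and 9.04 without the filter (all 57.3 and 26), and 46.3 and 6.06 when centred on the median of all regions (all 28.9 and 27.6). For the crushed-gel pair, RNase I was higher in 53.8% without the filter (all 70.5%), and centring, which shifts all regions by a log2 of 3.52 there, gave 20.7% and 57.7% (all 18.3% and 42.7%). Modes after the codon were 37.9% in RNase I 0.05/0.05 with 10 nt on both sides and, without modes at an edge (chosen after seeing the data), 51.8%, 55.9%, 56%, 53.9% and 55.6%. With at least 20 reads the codon stood 2.53, 2.9, 2.86 and 2.21 times above far coding positions in the first 4 libraries. With the whole codon inside, the UAA excess over the background fell after RNase I, from 3.03, 3.78 and 6.15 to 1.14, 2.98 and 4.78 points. After RNase T1, where UGA codons were often cut by the cluster end, it rose from 16.1 and 14.8 to 27.9 and 26.6 points. Without the RNase T1 0.25/0.25 library, 146 codons were held in all.

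Motif differences in points moved as follows, and the cause was not tested. In windows of 21 nt, CAUU was -1.67 against coding and -5.57 against 3′UTR clusters, CAUA was 0.0945 (reversed) and -2.57, and against 3′UTR clusters CAUC was 1.14 and CAGU -0.868 (reversed). In windows of 61 nt, CAUA was 1.23 and GGAC 0.766 (both reversed) and CAGU -4.54 against coding clusters, and against 3′UTR clusters CAUC was 5.05, CAGU -0.656 (reversed) and GGAC 7.35. With at least 20 reads, CAUA was -3.92 against coding clusters, and CAUC 2.75 and CAGU -0.0517 (reversed) against 3′UTR clusters. At cluster midpoints, chosen after seeing the data, CAUU was -0.251, CAUA 2.78 and GGAC 0.492 (the last pair reversed) against coding clusters, and CAUC 5.35 and CAGU -0.596 (reversed) against 3′UTR clusters. CAUU stayed lower than in 3′UTR clusters, and CAUC higher, under each setting.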
